A study of Mus musculus with 24 samples.

Results

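The 37 genes of glycolysis and of the response to low oxygen described here were taken by symbol from the table of estimated gene counts of mouse cartilage explants, where they fill 38 of 52178 rows because aldolase A (Aldoa) has a second row with at most 48 counts in any library. They were split into 24 genes of glycolysis (4 glucose and lactate transporters, 17 glycolytic enzymes and 3 regulators of flux) and 13 genes of the hypoxia response (4 of oxygen sensing and 9 targets). All 37 passed the filter on low counts that left 21283 genes for testing. Hip caps (articular cartilage of the femoral head) came from male mice of strain C57/BL6 (C57/BL6J in the methods), 4 weeks of age, and metatarsals (growth plate cartilage rudiments) came from E15 embryos of the same strain. Both were cultured for 24 h, held for 1 h without pressure (control, 0 MPa) or under 5 MPa (labelled physiological) or 50 MPa (labelled injurious) of hydrostatic pressure, and cultured for 24 h more. Each of the 6 groups of tissue and pressure has 4 libraries, each from 2 pooled hip caps or 6 pooled metatarsals, with no transgene or drug in any group. Hip cap control replicate 4 and hip cap 50 MPa replicate 2, which the study set aside as outliers, were left out of the tests, so that 22 libraries remained, with 3 in each of those groups. Each hip cap library is from 1 mouse by the methods of the study, whereas the litters behind the metatarsal pools are not given, so that p-values there measure the spread between pools. Age, skeletal site, sex (male for hip caps, labelled unknown for the embryos) and culture medium (DMEM for hip caps, a supplemented alpha-MEM for metatarsals) differ between the tissues and cannot be told apart.

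Glycolysis splits glucose into pyruvate in the cytosol, and cartilage, which has few or no vessels, relies on it heavily and exports the lactate it makes. When oxygen is low, prolyl hydroxylases encoded by the Egln genes no longer mark the HIF alpha subunits, encoded by Hif1a and Epas1, for degradation, and the HIF dimers bind DNA at short sites with the core letters ACGTG or GCGTG. Most HIF regulation acts on the protein, so that a Hif1a or Epas1 transcript level is not a level of HIF activity. Many glycolytic genes (Slc2a1, Pgk1, Ldha, Pdk1) are HIF targets themselves, as are Car9, Ankrd37, Ndrg1 and Bnip3.

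Total estimated counts ran from 4185241 to 25104240 per library. The members together took between 0.282% and 0.971% of them in the 22 libraries. The sequencing run (read from a colour strip in the study's clustering plot, and so uncertain) and the library type (stranded, or unstranded in 6 libraries) were terms of the fit. All 8 libraries of both tissues at 5 MPa were stranded and of the second run, so that the tissue comparison at 5 MPa crosses no batch, while that of the controls and that at 50 MPa lean on metatarsal control replicate 1 and metatarsal 50 MPa replicate 4, the only metatarsal libraries of the first run. Summed over 10 cartilage markers (Col2a1, Acan and others) hip caps reached 22240 to 78210 CPM (the usual counts scaled to library size, here the total over the genes tested times its TMM factor) and metatarsals 1923 to 5100. Summed over 11 skeletal muscle markers they reached 20.0 to 52.97 CPM in hip caps, with Myog at 0 in the control and 50 MPa libraries, and 465 to 2625 CPM in metatarsals. Osteoclast markers (5 genes) summed to 323 to 1697 CPM in hip caps and 35.8 to 75.1 CPM in metatarsals, where Calcr was at 0. The part of these other tissues in the differences below was not tested, and in whole explants fewer cells of a type and less RNA per cell cannot be told apart.

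Per kilobase of transcript the payoff-phase and aldolase genes led in every group. At 5 MPa, Gapdh (glyceraldehyde-3-phosphate dehydrogenase) averaged 448 CPM per kilobase in hip caps and 399 in metatarsals, Aldoa 295 and 293, Pkm (pyruvate kinase) 291 and 217, Eno1 (enolase 1) 256 and 233, and Ldha (lactate dehydrogenase A) 212 and 193. Those 5 genes were the highest 5 members in both tissues. The hexokinase genes, whose products catalyse the first step, were far lower, with Hk1 at 22.8 and 24.2 and Hk2 at 7.48 and 10.2 CPM per kilobase in hip caps and metatarsals. The order of the low members differed between the tissues. Car9 (carbonic anhydrase 9), Eno2 (enolase 2) and Slc2a3 (glucose transporter 3) held the 3 lowest places in hip caps at 1.12, 1.97 and 2.00 CPM per kilobase, and Pfkfb4, Car12 and Aldoc the 3 lowest in metatarsals at 2.11, 2.32 and 2.40.

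Between hip caps and metatarsals without pressure, 18 of 37 members passed an adjusted p of 0.05 (edgeR quasi-likelihood test with Benjamini-Hochberg adjustment over all genes tested), 11 higher and 7 lower in hip caps, against 31.0% of all genes tested (14.6% higher, 16.4% lower). At 5 MPa 13 members passed (5 higher, 8 lower) against 38.1% of all genes (18.8% higher, 19.2% lower) and at 50 MPa 11 (8 higher, 3 lower) against 20.4% (10.6% higher, 9.86% lower). The members that passed were 48.6%, 35.1% and 29.7% of the 37, so that at 5 MPa their share was below that of all genes. Aldoc, Pgam1, Hif1a, Epas1 and Car12 were higher and Slc2a3, Eno2 and Car9 lower in hip caps at all 3 pressures, no member changed sides between calls, and 16 members passed at no pressure. Over all 3 pressures the 10 hip caps and 12 metatarsals did not overlap for 8 members (3 higher, 5 lower), against 16.1% of all genes. Within a pressure the groups did not overlap for 22, 11 and 17 members in controls, at 5 MPa and at 50 MPa, against 42.4%, 40.8% and 39.9% of all genes. The median log2 fold change of the glycolysis genes was 0.09, 0.04 and 0.34 in controls, at 5 MPa and at 50 MPa, and that of the hypoxia genes 0.53, -0.03 and 0.87, beside -0.08, -0.08 and -0.01 over all genes tested. The counts rested on single libraries where the batches did: without metatarsal control replicate 1 the controls gave 3 calls (Slc2a3, Eno2 and Epas1), and without metatarsal 50 MPa replicate 4 the 50 MPa comparison gave 4, Slc2a3, Eno2 and Epas1 among them, whereas at 5 MPa leaving out any 1 library gave 12 to 15. The calls over all genes fell as well, to 12.1% and 5.58% in the first 2 fits, and were 33.4% to 36% at 5 MPa. When libraries were scaled by their totals, without TMM factors, the median of all genes moved to -0.96, -0.70 and -0.90, and the calls became 3 higher and 15 lower in controls, 3 and 18 at 5 MPa and 2 and 9 at 50 MPa. On that scale 42.4%, 50.6% and 33.4% of all genes passed in either direction. Directions below are relative to the TMM scale, log2 fold changes are given ± SE of the edgeR fit, and adjusted p are from that fit. Library values are listed in the order of their replicate numbers. Beside the calls that rested on those 2 libraries, Ddit4 in controls was lost without any 1 of 5 libraries, Pfkl, Pkm and Adm without hip cap control replicate 1 or 3, Tpi1, Ldhb and Pfkm without replicate 1, Pgam1 without replicate 3 and Gpi1 without replicate 2. Pdk1 at 5 MPa was lost without any 1 of 6 libraries, and at 50 MPa P4ha1 and Ldha were lost without hip cap replicate 4, and P4ha1 without metatarsal replicate 1 or 2.

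**Figure D1:**
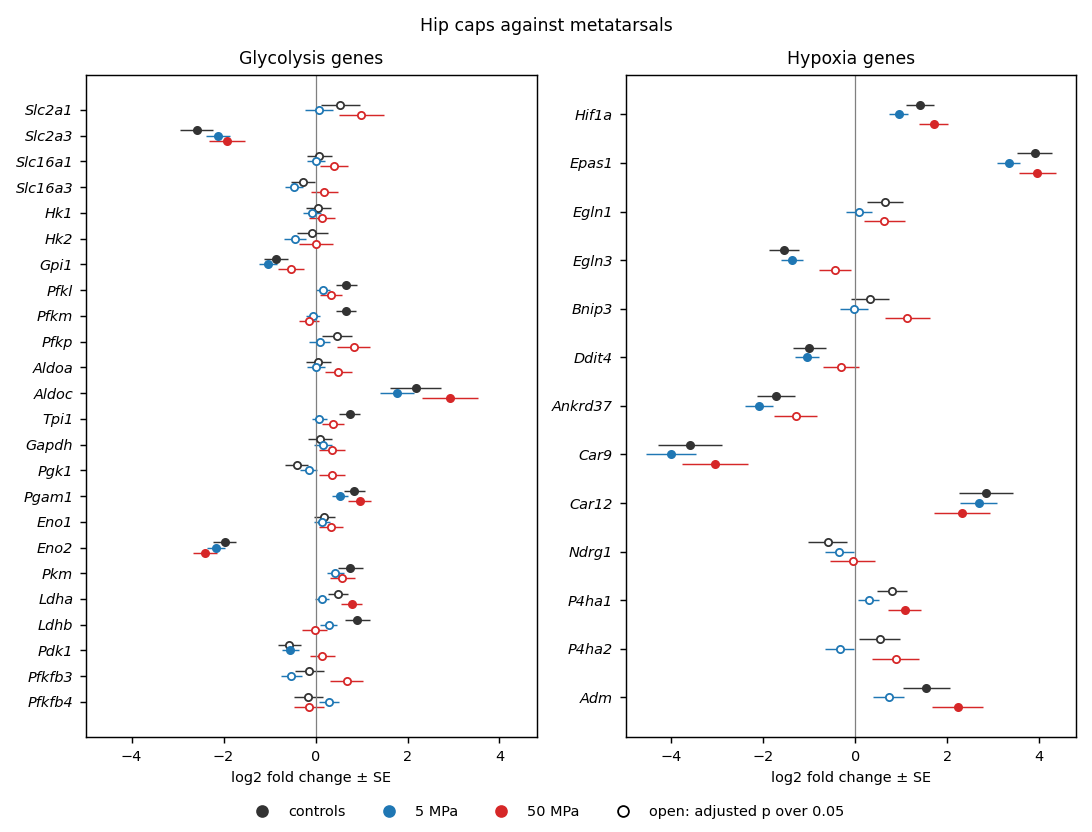
Log2 fold change of each member between hip caps and metatarsals (x axis; bars are the SE of the edgeR fit), for controls, 5 MPa and 50 MPa, with glycolysis genes on the left and hypoxia genes on the right. Filled points passed an adjusted p of 0.05 and open points did not; Epas1 lies between 3.33 and 3.96 and Car9 between -4.01 and -3.05, while Hk1, Aldoa, Gapdh and Eno1 stay between -0.08 and 0.50.

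Of the 4 transporters, Slc2a3, which encodes a high-affinity glucose carrier, was lower in hip caps, and the others passed at no pressure. Slc2a3 (ENSMUSG00000003153) stood at 6.52, 5.73 and 5.24 CPM in the hip cap controls, 6.37, 6.89, 7.94 and 10.4 at 5 MPa and 5.27, 5.75 and 6.19 at 50 MPa. In metatarsals it stood at 45.9, 48.6, 24.2 and 24.2 CPM in controls, 29.8, 55.1, 24.1 and 28.5 at 5 MPa and 30.9, 22.4, 31.6 and 18.6 at 50 MPa. Every hip cap library lay below every metatarsal library. The log2 fold change was -2.59 ± 0.36 in controls, -2.12 ± 0.27 at 5 MPa and -1.92 ± 0.39 at 50 MPa, with adjusted p of 1.79e-05, 2.58e-06 and 0.00113. The 2 hip cap libraries set aside were higher than the other hip caps, at 15.0 and 12.5 CPM. Slc2a1, the widely expressed glucose carrier, ran from 105 to 261 CPM in hip caps and 75.2 to 221 in metatarsals and the ranges overlapped. The lactate and pyruvate carriers Slc16a1 and Slc16a3 had log2 fold changes between -0.47 and 0.40 over the 3 pressures, none past the threshold.

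Among the 17 enzymes, 7 were higher and 2 lower in the hip cap controls. Aldoc, a second aldolase, was the highest of them. It stood at 26.9, 31.2 and 20.8 CPM in hip cap controls, 20.6, 19.6, 15.1 and 36.6 at 5 MPa and 21.6, 16.5 and 60.4 at 50 MPa, and in metatarsals at 5.93, 6.69, 9.38 and 3.63 in controls, 6.29, 8.92, 5.30 and 6.29 at 5 MPa and 6.15, 4.01, 6.85 and 4.50 at 50 MPa. The 22 libraries separated by tissue, although hip cap 50 MPa replicate 4 stood above the other hip caps and the 2 libraries set aside fell to 5.21 and 11.1 CPM. Aldoc differed by 2.17 ± 0.56, 1.78 ± 0.37 and 2.92 ± 0.61 on the log2 scale (adjusted p 0.00711, 0.00101 and 0.00207). Eno2, known as neuronal enolase, was the lowest. It stood at 7.07, 5.41 and 7.81 CPM in hip cap controls, 6.91, 3.66, 4.90 and 6.54 at 5 MPa and 6.75, 5.13 and 4.64 at 50 MPa, and in metatarsals at 25.1, 25.9, 22.4 and 36.2 CPM in controls, 23.9, 27.5, 25.3 and 22.1 at 5 MPa and 28.3, 26.6, 28.6 and 28.8 at 50 MPa. Each hip cap value was under each metatarsal value, and the log2 fold changes of Eno2 were -1.97 ± 0.25, -2.16 ± 0.19 and -2.40 ± 0.26, all past the threshold under every alternative tried.

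Gpi1, the glucose-6-phosphate isomerase that also serves the pentose phosphate route, stood at 288, 178 and 250.4 CPM in hip cap controls, 182, 189, 240.2 and 228 at 5 MPa and 238, 206 and 252 at 50 MPa. The metatarsals held 501.1, 486, 379.7 and 353 CPM in controls, 394, 602, 386 and 338 at 5 MPa and 372, 307, 407 and 294 at 50 MPa, so that the 2 tissues did not overlap. It was lower in hip caps, with a log2 fold change of -0.86 ± 0.25 in controls and -1.03 ± 0.19 at 5 MPa, and its -0.53 ± 0.28 at 50 MPa did not pass (adjusted p 0.212). Pgam1, the phosphoglycerate mutase of most tissues, stood at 251, 228 and 218 CPM in hip cap controls, 162, 214, 240.4 and 231 at 5 MPa and 197, 182 and 325 at 50 MPa, and in metatarsals at 132, 145, 128 and 119 CPM in controls, 139, 168, 151 and 128 at 5 MPa and 142, 109, 135 and 121 at 50 MPa. Only the 5 MPa groups overlapped, hip cap 5 MPa replicate 1 lying below metatarsal 5 MPa replicate 2. Pgam1 was 0.84 ± 0.23, 0.53 ± 0.16 and 0.96 ± 0.25 higher on the log2 scale, and with library sizes alone it turned to -0.08, -0.09 and -0.11. Ldhb, the heart-type lactate dehydrogenase subunit, was higher in the control comparison alone. Its hip caps held 40.8, 27.9 and 36.8 CPM in controls, 20.1, 23.8, 18.6 and 24.7 at 5 MPa and 21.0, 20.9 and 34.4 at 50 MPa, and in metatarsals it held 16.1, 14.0, 17.5 and 19.9 CPM in controls, 15.5, 14.3, 21.4 and 20.4 at 5 MPa and 18.1, 22.3, 18.3 and 27.5 at 50 MPa. Its log2 fold change was 0.91 ± 0.27 in controls (adjusted p 0.0136), 0.28 ± 0.18 at 5 MPa and -0.02 ± 0.27 at 50 MPa.

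The remaining enzyme calls were small and held at 1 pressure each. Pfkl (liver-type phosphofructokinase, log2 fold change 0.67 ± 0.23), Pfkm (muscle-type phosphofructokinase, 0.67 ± 0.22), Tpi1 (triose phosphate isomerase, 0.74 ± 0.23) and Pkm (0.76 ± 0.26) passed as higher in hip caps among controls. Each of these 4 was called at neither 5 nor 50 MPa, and each turned to between -0.25 and -0.16 with library sizes alone. Ldha passed at 50 MPa alone (0.78 ± 0.24). Of the 3 regulators, Pdk1, which encodes a pyruvate dehydrogenase kinase, was lower in hip caps at 5 MPa alone (-0.55 ± 0.18, adjusted p 0.0194), and Pfkfb3 and Pfkfb4, which set the level of an activator of phosphofructokinase, passed nowhere. Hk1, Hk2, Pfkp, Aldoa, Gapdh, Pgk1 and Eno1 did not pass in any of the 3 comparisons as deposited.

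The values of Gapdh, Pgk1 and Eno1 depend on near-identical copies elsewhere in the genome, to which the counting software could assign the same reads. Copies were counted as genes that share at least 50% of their 31-base words with the member: 43 for Gapdh, 3 for Pgk1, 2 for Eno1 and 1 for Pgam1. In the 3 hip cap control libraries the copies held 55.6%, 35.4% and 36.9% of the summed counts of Gapdh and its copies, against 1.07% to 9.21% in the 12 metatarsal libraries. For Pgk1 the share in those hip controls was 53.2%, 35.3% and 30.1%, and for Eno1 45.8%, 51.4% and 9.59%, against at most 13.5% and 3.63% in metatarsals. The hip caps at 5 MPa stood at or below 6.01%, 12.7% and 11.2% for the 3 genes. At 50 MPa the hip caps held 15.8%, 3.00% and 24.2% for Gapdh, 22.9%, 14.4% and 27.9% for Pgk1 and 0.493%, 0.551% and 19.7% for Eno1. The hip cap controls tested were of the first run and those at 5 MPa of the second. Control replicate 4, set aside and of the second run, held 6.47%, 20.3% and 0.345% for Gapdh, Pgk1 and Eno1. The part of the run in these shares was not tested. With the copies added to the member, Gapdh (log2 fold change 0.85 ± 0.30, adjusted p 0.0367) and Eno1 (0.82 ± 0.22, adjusted p 0.00627) became higher in hip caps among controls, Pgk1 (0.71 ± 0.25, adjusted p 0.0451) became higher at 50 MPa, and at 5 MPa none of the 3 passed. Pgam1 stayed higher at all 3 pressures, at 0.96, 0.65 and 1.01.

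The hypoxia genes held the widest differences between the tissues. Of the 4 oxygen-sensing genes, both HIF alpha subunits were higher in hip caps. Epas1 (ENSMUSG00000024140), which encodes HIF-2 alpha, stood at 271, 184 and 271 CPM in hip cap controls, 185, 182, 184 and 198 at 5 MPa and 171, 139 and 438 at 50 MPa. In metatarsals Epas1 stood at 14.2, 21.9, 22.1 and 22.3 CPM in controls, 17.6, 20.4, 18.0 and 18.5 at 5 MPa and 18.0, 18.0, 17.9 and 16.8 at 50 MPa. The lowest of the 10 hip caps was 139 and the highest of the 12 metatarsals 22.3 CPM. The log2 fold change was 3.90 ± 0.38, 3.33 ± 0.25 and 3.96 ± 0.40, which at 5 MPa is 10.1-fold, and it passed under every alternative tried. Hif1a (HIF-1 alpha) differed less. It ran from 108 to 417 CPM in hip caps (median 186) and from 68.0 to 88.2 CPM in metatarsals (median 80.4), again without overlap, with log2 fold changes of 1.41 ± 0.30, 0.94 ± 0.21 and 1.70 ± 0.32. Hip cap 50 MPa replicate 4 was the highest library of both genes, at 438 and 417 CPM, and with library sizes alone the Hif1a calls were lost while its direction was kept.

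Of the 2 prolyl hydroxylase genes, Egln3 passed and Egln1 did not. Egln3, an isoform that HIF itself raises, stood at 15.8, 13.5 and 10.8 CPM in hip cap controls, 11.2, 14.2, 21.8 and 18.1 at 5 MPa and 15.7, 18.2 and 26.9 at 50 MPa, and in metatarsals at 48.8, 46.1, 27.3 and 30.9 CPM in controls, 41.9, 60.5, 35.1 and 31.6 at 5 MPa and 37.7, 27.5, 38.6 and 24.9 at 50 MPa. The groups did not overlap in controls and at 5 MPa, and did at 50 MPa, where hip cap replicate 4 reached 26.9 CPM. Egln3 was lower in hip caps, with a log2 fold change of -1.55 ± 0.32 in controls and -1.37 ± 0.24 at 5 MPa, and its -0.44 ± 0.35 at 50 MPa did not pass (adjusted p 0.436). Egln1, the main hydroxylase of most cells, ran from 50.8 to 119.8 CPM in hip caps and 42.2 to 108 in metatarsals and passed nowhere.

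**Figure D2:**
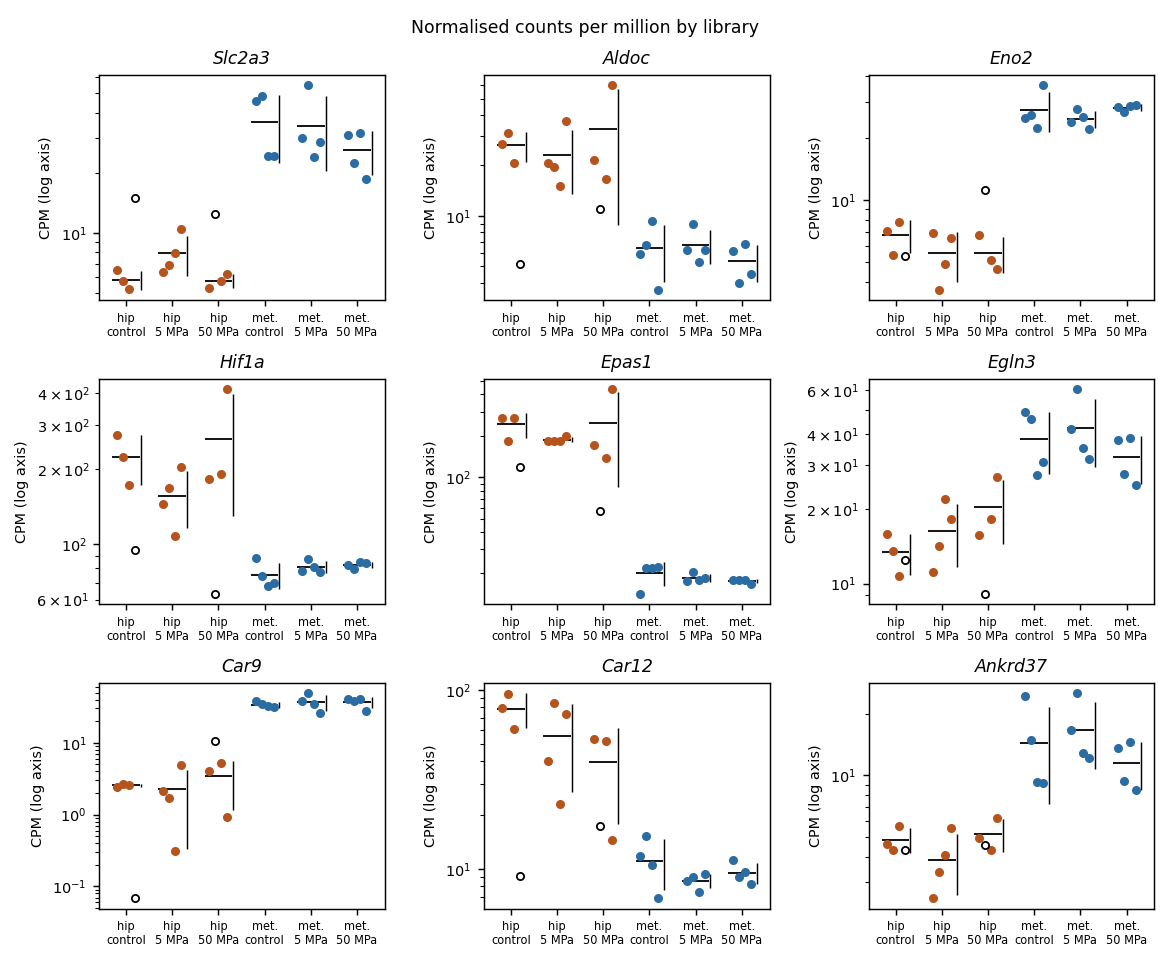
CPM of 9 members in each library (y axis, log scale) by group, with hip caps in brown and metatarsals in blue. Horizontal bars are the mean of the libraries tested, vertical bars its SD (kept above 0 for the log axis), and open circles the 2 hip cap libraries left out; Car9 and Epas1 separate the tissues in opposite directions, and the libraries left out often lie apart from their group.

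Of the 9 targets, the 2 carbonic anhydrases that face the outside of the cell and set its pH moved in opposite directions. Car9 (ENSMUSG00000028463) stood at 2.45, 2.71 and 2.57 CPM in hip cap controls, 2.14, 1.69, 0.309 and 4.93 at 5 MPa and 4.01, 5.27 and 0.928 at 50 MPa. In metatarsals Car9 stood at 38.3, 34.2, 32.1 and 31.3 CPM in controls, 37.9, 49.0, 34.1 and 26.2 at 5 MPa and 40.2, 38.1, 41.0 and 27.3 at 50 MPa. No hip cap tested exceeded 5.27 CPM, and the lowest values rested on 6 counts at 5 MPa and 3 at 50 MPa. Car9 was lower in hip caps, with log2 fold changes of -3.59 ± 0.70, -4.01 ± 0.54 and -3.05 ± 0.71, all past the threshold. Car12 (ENSMUSG00000032373) stood at 79.9, 95.5 and 61.0 CPM in hip cap controls, 40.2, 84.6, 23.2 and 73.4 at 5 MPa and 53.2, 51.8 and 14.6 at 50 MPa, and in metatarsals at 11.9, 15.3, 10.6 and 6.87 CPM in controls, 8.58, 9.08, 7.48 and 9.35 at 5 MPa and 11.3, 8.99, 9.61 and 8.23 at 50 MPa. The control and 5 MPa groups were apart, and at 50 MPa hip cap replicate 4, at 14.6 CPM, stood close above the metatarsals. Car12 was 2.84 ± 0.59, 2.68 ± 0.40 and 2.32 ± 0.61 higher in hip caps. In the libraries set aside, hip cap control replicate 4 had 0.0685 CPM of Car9 (1 count) and 9.18 of Car12, and hip cap 50 MPa replicate 2 had 10.5 and 17.3, so that in these 2 libraries Car12 lay within the metatarsal range or just above it.

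Ankrd37, a small ankyrin-repeat protein gene used as a readout of HIF-1, stood at 4.62, 4.30 and 5.62 CPM in hip cap controls, 2.50, 3.38, 4.07 and 5.52 at 5 MPa and 4.96, 4.30 and 6.19 at 50 MPa, and in metatarsals at 24.5, 14.8, 9.26 and 9.19 CPM in controls, 16.6, 25.2, 12.8 and 12.2 at 5 MPa and 13.6, 9.35, 14.5 and 8.46 at 50 MPa. All hip caps lay below all metatarsals, with log2 fold changes of -1.73 ± 0.41, -2.10 ± 0.30 and -1.30 ± 0.47, of which the last did not pass (adjusted p 0.0552). In metatarsal control replicate 1 Ankrd37 reached 24.5 CPM, and without that library its log2 fold change among controls was -0.42 ± 0.59 (adjusted p 0.715). Adm, the gene of the vasodilator peptide adrenomedullin, stood at 27.4, 14.2 and 17.6 CPM in hip cap controls, 10.2, 12.02, 14.2 and 20.2 at 5 MPa and 21.1, 12.5 and 38.4 at 50 MPa, and in metatarsals at 7.08, 13.6, 6.23 and 6.64 CPM in controls, 8.58, 12.5, 6.89 and 6.33 at 5 MPa and 8.20, 5.25, 8.65 and 5.03 at 50 MPa. It was higher in hip caps in controls (1.54 ± 0.51, adjusted p 0.0272) and at 50 MPa (2.23 ± 0.56, adjusted p 0.00705), and the 0.72 ± 0.34 at 5 MPa did not pass. Ddit4, an inhibitor of mTORC1, was lower in hip caps in controls (-1.004 ± 0.36) and at 5 MPa (-1.06 ± 0.26). P4ha1, a collagen prolyl 4-hydroxylase subunit, passed as higher at 50 MPa alone (1.07 ± 0.37, adjusted p 0.0445). Bnip3, Ndrg1 and P4ha2 passed at no pressure, with log2 fold changes between -0.60 and 1.13.

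The promoter windows of 4 of the targets and sensors that differed most are shown to set the 2 carbonic anhydrases, and 2 other genes lower in hip caps, side by side. They are from RefSeq on GRCm38.p6, 300 bases each from 250 before to 50 after the start of the gene, read 5′ to 3′ on the strand of the gene, with ACGTG and GCGTG on either strand in capitals (a run of capitals may hold overlapping matches). The windows are chr4:43506776-43507075 on the plus strand for Car9, chr9:66713436-66713735 on the plus strand for Car12, chr12:54203825-54204124 on the minus strand for Egln3 and chr8:45999801-46000100 on the minus strand for Ankrd37.
Car9: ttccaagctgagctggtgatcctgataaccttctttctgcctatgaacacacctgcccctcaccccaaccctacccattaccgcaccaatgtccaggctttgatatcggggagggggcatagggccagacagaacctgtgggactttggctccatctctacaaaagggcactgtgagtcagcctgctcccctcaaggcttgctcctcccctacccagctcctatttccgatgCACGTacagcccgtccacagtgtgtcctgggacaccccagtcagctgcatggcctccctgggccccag
Car12: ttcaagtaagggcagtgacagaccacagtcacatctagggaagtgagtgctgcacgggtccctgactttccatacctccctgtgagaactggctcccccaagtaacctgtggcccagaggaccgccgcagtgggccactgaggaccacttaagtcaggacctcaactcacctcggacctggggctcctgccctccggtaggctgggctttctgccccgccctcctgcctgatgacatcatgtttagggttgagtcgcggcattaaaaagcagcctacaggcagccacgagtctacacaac
Egln3: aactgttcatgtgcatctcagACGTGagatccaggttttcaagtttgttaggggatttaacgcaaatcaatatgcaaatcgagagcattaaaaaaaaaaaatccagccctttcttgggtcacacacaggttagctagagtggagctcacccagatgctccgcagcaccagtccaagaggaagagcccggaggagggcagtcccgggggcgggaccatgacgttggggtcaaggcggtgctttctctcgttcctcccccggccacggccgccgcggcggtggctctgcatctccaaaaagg
Ankrd37: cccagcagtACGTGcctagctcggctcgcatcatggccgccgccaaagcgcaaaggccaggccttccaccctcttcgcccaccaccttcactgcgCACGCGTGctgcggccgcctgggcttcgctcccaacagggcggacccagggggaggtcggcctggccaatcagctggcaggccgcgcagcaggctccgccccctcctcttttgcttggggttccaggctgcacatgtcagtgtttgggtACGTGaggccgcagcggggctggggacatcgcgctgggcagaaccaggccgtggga
The Car9 window holds 1 match, 18 bases before the start, the Car12 window 0, the Egln3 window 1 and the Ankrd37 window 4. Windows were given for 34 of the 37 members (not for Slc2a3, Epas1 and Ndrg1), and 27 of them (79.4%) held at least 1 match, 17 of 23 glycolysis genes (73.9%) and 10 of 11 hypoxia genes (90.9%), against 43.8% of all 32851 windows of this length. A match describes these letters alone.

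Because a share within a pair of related genes does not depend on how libraries are scaled, the balance of 12 pairs was compared between the tissues as the percentage that the second gene took of the summed counts per kilobase. The tissue labels were permuted within each pressure in an exact two-sided permutation test, with p-values adjusted over the 12 pairs. The share differed in 9 pairs, and the ranges of the 10 hip caps and 12 metatarsals did not overlap in 5. Those 5 reached the smallest p that the 85750 permutations can give, 1.17e-05 (adjusted 2.8e-05). The test takes no account of sequencing run and library type, which differ between the tissues in controls and at 50 MPa, and at 5 MPa alone 0 pairs passed.

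Of the carbonic anhydrase pair, Car12 made up 84.3% to 97.6% (median 91.9%) in hip caps and 9.17% to 19.6% (median 12.3%) in metatarsals, a difference of 78.6 percentage points. Of the HIF alpha pair, Epas1 made up 38.5% to 59.4% (median 46.6%) in hip caps and 12.1% to 21.7% (median 16.2%) in metatarsals, a difference of 30.8 percentage points. Of the pair with Slc2a1, Slc2a3 made up 1.92% to 5.87% (median 3.56%) in hip caps and 15.5% to 19.4% (median 17.0%) in metatarsals, a difference of -14.1 percentage points. Eno2 took 0.520% to 1.504% of the enolase pair in hip caps and 3.42% to 6.50% in metatarsals, and Aldoc 1.54% to 4.23% of the aldolase pair in hip caps and 0.525% to 1.21% in metatarsals.

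The other 4 differences were small beside the ranges, which overlapped. P4ha2 was 6.38 percentage points lower in hip caps in its pair with P4ha1 (adjusted p 0.00513, exact permutation test), Slc16a3 5.60 points lower with Slc16a1 (0.0243), Hk2 4.16 points lower with Hk1 (0.0243) and Pfkm 3.32 points lower with Pfkl (0.035). With all 24 libraries the last 3 did not pass. The shares of Pfkp with Pfkl (adjusted p 0.942), Ldhb with Ldha (0.574) and Pfkfb4 with Pfkfb3 (0.508) did not pass by the same test. At 5 MPa alone, 4 libraries against 4 cannot give a p below 0.0286, and the pairs that did not overlap reached an adjusted p of 0.0571. In the 2 libraries set aside the shares left their tissue's range for several pairs, with Car12 at 98.6% and 47.3% and Slc2a3 at 10.4% and 20.2% in hip cap control replicate 4 and hip cap 50 MPa replicate 2, and Eno2 at 5.82% in the latter.

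**Figure D3:**
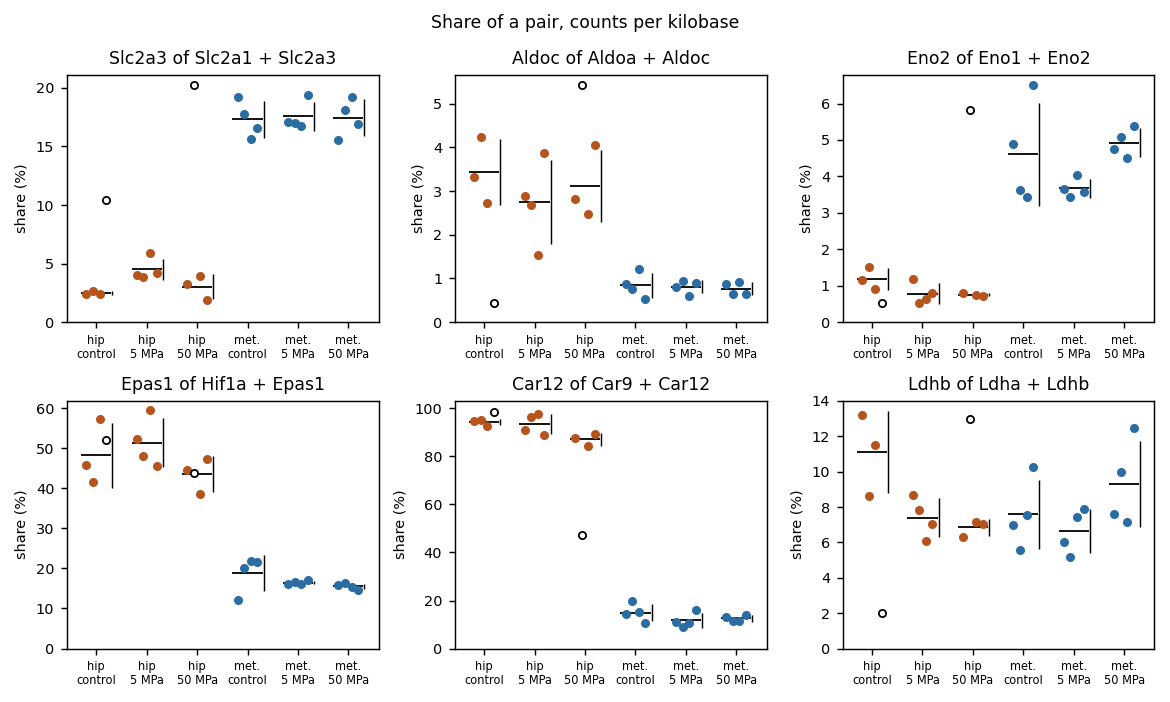
Share (y axis, percent of the summed counts per kilobase) of the second gene of 6 pairs in each library by group, drawn as in the plot of CPM, with the mean and SD of the libraries tested. The filled points of hip caps and metatarsals do not overlap in 5 pairs, and do for Ldhb; the open circles are the 2 hip cap libraries left out.

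Under pressure 1 member, Pfkm, passed in 1 of the 4 comparisons within a tissue, a call that was lost in 12 of 20 alternatives. In metatarsals no member passed at 5 or at 50 MPa against control, as none of the 21283 genes tested did by edgeR (0.0% in both), and no member had an unadjusted p under 0.05, beside 733 and 872 of all genes (edgeR). By DESeq2 16 and 12 of all genes passed, 0 of them members. The log2 fold changes of the members ran from -0.33 (Car12) to 0.43 (Ankrd37) at 5 MPa and from -0.49 (Ddit4) to 0.27 (Ldhb) at 50 MPa, with a median SE of 0.23 in both. At 5 MPa 30 of 37 lay above 0 and at 50 MPa 30 lay below 0, and these 2 comparisons share their controls. Metatarsal 5 MPa replicate 2 held the highest metatarsal value for 25 of the 37 members. How far the count at 5 MPa rests on that library was not tested. Members' medians were 0.10 (glycolysis) and 0.19 (hypoxia) at 5 MPa and -0.07 and -0.14 at 50 MPa, beside -0.0034 and 0.0015 over all genes. Groups did not overlap for Tpi1 and Ldha at 5 MPa and Tpi1 at 50 MPa, each higher than control, against 2.88% and 4.48% of all genes.

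In hip caps at 5 MPa against control no member passed, against 0.0235% of all genes, and 1 member (Pfkm) had an unadjusted p under 0.05. The hip cap controls tested were all of the first run and the hip caps at 5 MPa all of the second. Run and pressure cannot be told apart within these hip caps, and the run term rested on the metatarsals. Without batch terms 11.4% of all genes passed. DESeq2 called 0 members, against 3.35% of all genes. The medians were -0.15 for the glycolysis genes and -0.29 for the hypoxia genes, beside 0.01 over all genes. At 50 MPa 1 member, Pfkm, passed as lower, against 5.5% of all genes in either direction and 1.98% lower. Pfkm stood at 52.5, 35.5 and 49.4 CPM in the hip cap controls, 29.4, 30.5, 25.2 and 33.2 at 5 MPa and 31.6, 25.9 and 40.9 at 50 MPa. Groups did not overlap for 3 members at either pressure (Pgk1 higher at both, Pfkm and Ldhb lower at 5 MPa, Hk2 and Car12 lower at 50 MPa), against 16.2% and 15.8% of all genes. With its copies added Pgk1 stood at 264.2, 296.6 and 274.3 CPM in controls, 194.6, 239.5, 230.2 and 309.8 at 5 MPa and 315.3, 289.1 and 432.7 at 50 MPa, so that the groups overlapped at both pressures. For Pfkm the controls and the 50 MPa libraries overlapped, because control replicate 2 lay below 50 MPa replicate 4. In metatarsals Pfkm stood at 23.2, 25.8, 31.1 and 33.3 CPM in controls, 31.0, 30.0, 33.2 and 28.3 at 5 MPa and 29.1, 29.0, 28.5 and 40.0 at 50 MPa. Its log2 fold change in hip caps at 50 MPa was -0.76 ± 0.22 (adjusted p 0.05), and at 5 MPa -0.64 ± 0.25 (adjusted p 0.228). The alternatives that lost the call include leaving out hip cap control replicate 3 or hip cap 50 MPa replicate 1 or 3, and DESeq2 kept it (-0.77 ± 0.23, adjusted p 0.0104) and called Pdk1 as well (higher, adjusted p 0.0403), against 15% of all genes by DESeq2. All hip caps at 50 MPa were unstranded, and of the hip cap controls tested only replicate 3 was, so that the 50 MPa comparison leans on it. Without that library 1 of 22039 genes tested passed by edgeR.

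Other members of the hip caps at 50 MPa had an unadjusted p under 0.05 without passing the adjustment. They were Egln3 (1.03 ± 0.36, adjusted p 0.0904), Pdk1 (0.77 ± 0.26, adjusted p 0.0853), Pgk1 (0.64 ± 0.28, adjusted p 0.172) and Ldhb (-0.66 ± 0.27, adjusted p 0.149). With its copies added Pgk1 stood at 0.33 ± 0.24. The medians were 0.09 for the glycolysis genes and 0.26 for the hypoxia genes, beside 0.02 over all genes. Markers moved over the same libraries. From control to 50 MPa the cartilage sum went from 49640 to 78210 down to 32980 to 37680 CPM. The macrophage sum went from 22.8 to 39.1 up to 75.3 to 90.7 CPM. The osteoclast sum went from 323 to 515 up to 537 to 1697 CPM. The muscle sum went from 23.07 to 25.82 up to 33.33 to 52.97 CPM. None of these sums overlapped, whereas the erythroid, neutrophil, osteoblast and endothelial sums did. In hip caps at 5 MPa the macrophage sum (43.89 to 177.2 CPM) and the osteoclast sum (529.4 to 1666 CPM) also lay above control. The cartilage and muscle sums overlapped control at 5 MPa. Hip cap control replicate 4, set aside, held 9264 (cartilage), 279.5 (macrophage), 4543 (osteoclast) and 64.75 CPM (muscle). Hip cap 50 MPa replicate 2, set aside, held 13100, 28.5, 223.2 and 123.3 CPM. With both libraries added, these sums overlapped too. The part of these cell types in the values of Pfkm and Egln3 was not tested. Whether pressure acted differently in the 2 tissues was tested as an interaction, which no member passed at 5 MPa (0.0188% of all genes did; 2 members, Pfkm and Tpi1, had an unadjusted p under 0.05) or at 50 MPa (0.442%; 6 members had). By DESeq2 the interaction gave 0 members at 5 MPa and 2 at 50 MPa, Pfkm (adjusted p 0.0281) and Ldhb (adjusted p 0.0494), both lower, against 0.72% and 8.92% of all genes.

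**Figure D4:**
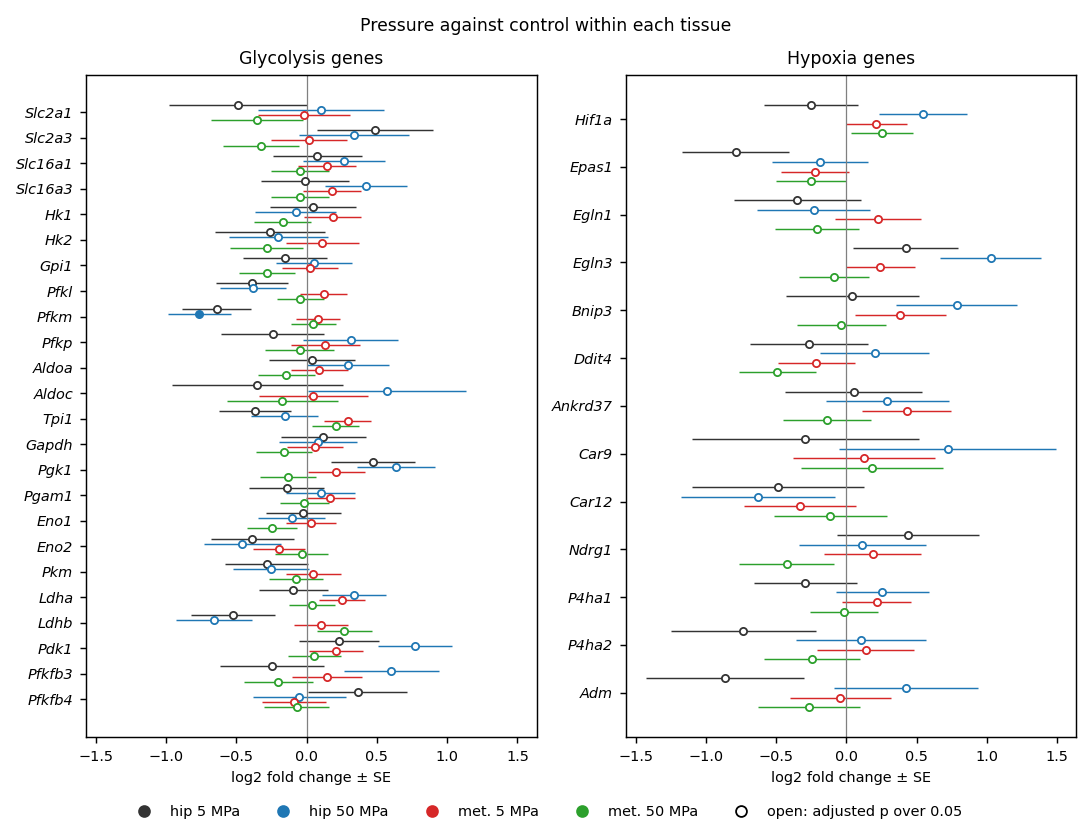
Log2 fold change of each member under pressure against control within a tissue (x axis; bars are the SE of the edgeR fit), in 4 comparisons. Only Pfkm in hip caps at 50 MPa is filled (adjusted p of 0.05 or less); the widest open points belong to hip caps, from -0.86 for Adm at 5 MPa to 1.03 for Egln3 at 50 MPa, while the metatarsals lie between -0.49 and 0.43.

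Single libraries stood out among the members. Metatarsal 5 MPa replicate 2 held the highest value of all 12 metatarsal libraries for 25 of the 37 members (67.6%), 16 of 24 glycolysis genes and 9 of 13 hypoxia genes, and for 7.54% of all genes tested. Among them Hk2, the inducible hexokinase, stood at 94.99 CPM there and at 33.0 to 66.8 CPM in the other 11 metatarsal libraries. Ndrg1, a target that HIF raises in many cells, stood at 181 CPM beside 62.2 to 81.2 CPM in the other 3 libraries of its group. Egln1 stood at 108 CPM beside 50.8 to 58.1 CPM. Car9, at 49.0 CPM, and Slc2a3, at 55.1 CPM, were highest in the same library, while Hif1a and Epas1 were not. Its sum over muscle markers, 2070 CPM, was the highest of the 4 metatarsal libraries at 5 MPa (1248 to 1621 CPM in the others), and its total of 12404537 counts lay within the range of the others. Metatarsal control replicates 1 and 2 were the next highest for Slc2a3 (45.9 and 48.6 CPM) and Slc2a1 (159 and 186 CPM).

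In hip caps, 50 MPa replicate 4 held the highest of 10 values for 20 of 37 members (54.1%), 10 of 24 glycolysis genes and 10 of 13 hypoxia genes, and for 15.9% of all genes. Hif1a, Epas1, Aldoc and Adm were among them, as were Bnip3, a mitophagy receptor gene, at 277 CPM (89.5 in the lowest hip cap, median 124) and P4ha1 at 460 CPM (median 274). Car12, at 14.6 CPM, was lowest in this library. It had 7565163 counts, the fewest but 1 of the hip caps, with an osteoclast marker sum of 1697 CPM, the highest of the 10. These ranks are on the TMM scale. Of the total counts of this library the members took 0.343%, within the 0.282% to 0.568% of the 10 hip caps. Bnip3 had 896 of 7565163 total counts here and 3956 of 25104240 in hip cap 5 MPa replicate 4, a larger part there, at 193 CPM. How far the ranks of the other members rest on the TMM factor of this library was not tested. Both libraries were picked out after their values were seen.

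**Figure D5:**
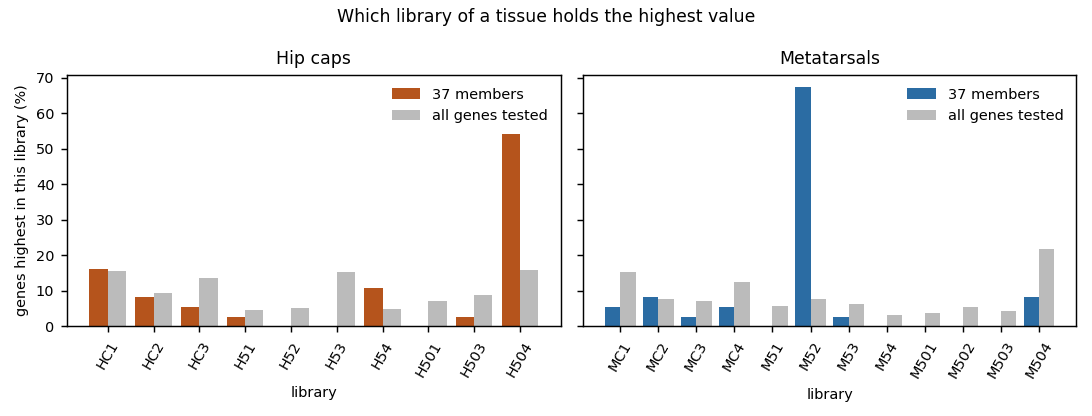
Percentage of genes whose highest CPM within a tissue lies in a given library (y axis), for the 37 members (coloured bars) and all 21283 genes tested (grey bars), over the 10 hip cap (left) and 12 metatarsal libraries (right). Library names give tissue (H or M), pressure (C, 5 or 50) and replicate; M52 holds 67.6% of the members and H504 54.1%, against 7.54% and 15.9% of all genes.

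Around the members, 70 further genes of the same pathways were listed, of which 66 were tested. Among controls 13 were higher and 6 lower in hip caps (28.8%, against 31.0% of all genes), and 10 passed in all without metatarsal control replicate 1 (against 12.1% of all genes). At 5 MPa 20 were higher and 10 lower (45.5%, against 38.1% of all genes), and at 50 MPa 18 and 5 (34.8%, against 20.4%), where 5 passed in all without metatarsal 50 MPa replicate 4 (against 5.58%). With library sizes alone the split turned to 1 higher and 30 lower in controls, 9 and 32 at 5 MPa and 2 and 18 at 50 MPa. Of all genes 42.4%, 50.6% and 33.4% passed in either direction in that fit. Hif3a, which encodes a HIF alpha form that can hold back the others, was the lowest that passed in controls (-4.96 ± 0.35) and at 50 MPa (-3.88 ± 0.34). In controls Ppfia4 (-3.39 ± 0.28) and the muscle-type phosphoglycerate mutase Pgam2 (-2.60 ± 0.94) followed. At 5 MPa Pgam2 was the lowest (-5.36 ± 0.71), below Hif3a (-4.45 ± 0.26). Galm (galactose mutarotase, 2.62 ± 0.41), Pdk4 (a pyruvate dehydrogenase kinase, 1.89 ± 0.46) and Taldo1 (transaldolase, 1.80 ± 0.29) were the highest in controls. Of the pentose phosphate genes, 3 of 7 passed as higher in hip caps in controls, 4 of 7 at 5 MPa and 2 of 7 at 50 MPa, with none lower, on the TMM scale. Of all genes 14.6%, 18.8% and 10.6% passed as higher. Of 22 other hypoxia targets, 4, 5 and 8 were higher and 2, 5 and 2 lower over the 3 pressures, beside the same shares higher and 16.4%, 19.2% and 9.86% of all genes lower.

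Under pressure the further genes behaved as the members did in metatarsals (0 calls at either pressure) and in hip caps at 5 MPa (0 calls, and 4 without hip cap control replicate 2, against 6.35% of all genes), whereas in hip caps at 50 MPa 7 of 66 passed as higher and 1 as lower (12.1%, against 5.5% of all genes). None of these 8 calls remained without hip cap control replicate 3, with all 24 libraries, with the tissue fitted alone, with library sizes alone or with the trend with GC content removed, and 2 remained without hip cap 50 MPa replicate 3 and 4 without replicate 4. The 3 highest were Higd1a (a hypoxia-induced nuclear gene of a mitochondrial protein, log2 fold change 1.53 ± 0.43), Tfrc (the transferrin receptor, 1.45 ± 0.36) and Dld (a subunit shared by the keto acid dehydrogenase complexes, 1.27 ± 0.26). Hilpda, a lipid-droplet target of HIF, Pdhb, a subunit of pyruvate dehydrogenase, and the glycogen genes Gbe1 and Ugp2 were the other 4, and Tkt (transketolase, -0.73 ± 0.19) was the one lower. Of these 8, none passed the interaction with tissue; Tfrc came closest (adjusted p 0.0588).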

How the data were processed

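RNA of hip cap and metatarsal explants, partly degraded, was depleted of ribosomal RNA and sequenced. The authors trimmed reads with Trim Galore 0.6.5, ran kallisto for transcript abundances and tximport for sums over genes; GRCm39 is named per the labels. The deposited table holds estimated counts per gene, which were rounded to whole numbers here, and no column of another sample. The authors used DESeq2; here edgeR's quasi-likelihood test (edgeR 4.0.16, R 4.3.3) was fitted to all genes kept by filterByExpr, with TMM factors, the 6 groups, the sequencing run and the library type as terms, and p-values adjusted by Benjamini-Hochberg over 21283 genes at a threshold of 0.05. Hip cap control replicate 4 and hip cap 50 MPa replicate 2 were left out. Pressures are labelled in mPa and were read as MPa after the study's methods. Depth was 4185241 to 25104240 counts per library, and low genes such as Car9 in hip caps rest on few counts. Gene names and transcript lengths came from GENCODE M21 on GRCm38, another build than the counts, so that no coordinate was joined to a count.

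Members, lists of further genes and markers, and the comparisons were chosen with earlier results of these data known. Full values are given for the members with the 3 highest and 3 lowest log2 fold changes among controls in each list, and for any member that passed under pressure. Of the further genes, the 3 highest and 3 lowest that passed in a comparison could be named; Hilpda, Pdhb, Gbe1 and Ugp2 were named after their values were seen. Shares within 12 pairs of genes were compared by exact permutation within pressures (Python, scipy 1.17.1). Alternatives were RLE and library-size scaling, other filters, all 24 libraries, other batch terms, DESeq2 1.42.0, each tissue or pressure alone, a replicate block and leaving out each library; adding copies to a member and removing the trend with GC content were chosen after seeing the data. Libraries of a group with the same replicate number in different pressures correlated in their deviations from group means between -0.13 and 0.157 in hip caps and between -0.183 and 0.291 in metatarsals, so that numbers were not taken to pair libraries. Scripts were tested on simulated data. No 2 libraries of a group agreed within sampling noise.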

Additional observations from a re-analysis of the deposited data

Results flagged for a closer look

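In 15 of 196 group values (7.65%) 1 library of 4 stood far from the other 3 by Dixon's test, where chance gives about 1 in 20. Metatarsal 5 MPa replicate 2 was high for Hk2 (94.99 CPM, others 41.3 to 45.7), Pgk1 (312 CPM, others 242 to 247), Egln1 (108 CPM, others 50.8 to 58.1) and Ndrg1 (181 CPM, others 62.2 to 81.2). Metatarsal 50 MPa replicate 4, which differs from its group in run and library type, was high for Pfkm (40.0 CPM, others 28.5 to 29.1) and Tpi1 (191.9 CPM, others 161 to 165) and low for Epas1 (16.8 CPM, others 17.9 to 18.0). Metatarsal control replicate 1, of the other run than its group, was low for Epas1 (14.2 CPM, others 21.9 to 22.3). Metatarsal control replicate 4 was low for Pgk1 (155.9 CPM, others 244 to 254), and metatarsal control replicate 2 was high for Adm (13.6 CPM, others 6.23 to 7.08). Hip cap 5 MPa replicate 4 was high for Hk2 (59.9 CPM, others 33.4 to 36.4) and for Epas1 (198 CPM, others 182 to 185). Of the shares within pairs, hip cap 5 MPa replicate 3 stood apart for Slc2a3 in its pair with Slc2a1 (5.87%, others 3.89% to 4.21%) and for Pfkp in its pair with Pfkl (31.6%, others 39.5% to 40.2%), and metatarsal 5 MPa replicate 4 for Slc2a3 (19.4%, others 16.7% to 17.1%).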

How the results depend on the processing

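Of the 18 members called between hip caps and metatarsals in controls, 9 passed with all 24 libraries (26.6% of all genes did) and 9 with each pressure fitted alone (13.5%). Of the other comparisons of the tissues, 5 MPa gave 21 calls in place of 13 with library sizes alone, against 50.6% of all genes. At 50 MPa there were 4 in place of 11 with all 24 libraries, 4 fitted alone and 18 with no batch terms. The shares of all genes in these 3 fits were 9.64%, 12.1% and 37.2%. With library sizes alone the direction turned for Pgam1 (-0.0787), Pfkl (-0.25), Tpi1 (-0.17), Pkm (-0.16) and Pfkm (-0.24) in controls, Pgam1 (-0.0859) at 5 MPa and Pgam1 (-0.11), P4ha1 (-0.0564) and Ldha (-0.28) at 50 MPa. In hip caps 5 MPa against control gave 3 calls in place of 0 with no batch terms, against 11.4% of all genes, and there run and pressure go together. In hip caps at 50 MPa the 1 call became 0 with RLE factors, library sizes alone, no filter, all 24 libraries, no batch terms, run or library type alone, the tissue fitted alone and the GC trend removed. Between 0% and 5.66% of all genes passed in those fits. The call became 2 with a minimum of 10 counts or DESeq2, where 16.1% and 15% of all genes passed. The interaction at 50 MPa gave 2 in place of 0 by DESeq2, against 8.92% of all genes. The 9 pairs became 0 at 5 MPa alone, where fewer libraries enter. The cause of the other changes was not tested. Leaving out 1 library at a time gave 3 to 18 calls in controls, 12 to 15 at 5 MPa, 4 to 11 at 50 MPa, 0 to 3 for hip caps at 50 MPa (3 without 50 MPa replicate 4), 0 to 2 for the interaction at 50 MPa (2 without hip cap control replicate 2 or 50 MPa replicate 4), 7 to 9 pairs, and 0 in the other comparisons. Of all genes these fits called 12.1% to 31% in controls, 33.4% to 36% at 5 MPa and 5.58% to 19.7% at 50 MPa. For hip caps at 50 MPa they called 0.00454% to 11.6%, and for the interaction at 50 MPa 0.0136% to 7.81%. With a replicate block the calls were 16, 13 and 10 for the tissues in controls, at 5 MPa and at 50 MPa and 1 for hip caps at 50 MPa. Of all genes 29.6%, 37.4%, 19.5% and 7.2% passed there. The replicate numbers are only shared, not shown to pair libraries. Called members gave 539 values of the same direction and side of the threshold, 64 below it and 9 reversed over the alternatives, and 262 and 51 over single libraries left out. Car9 in hip caps rested on as few as 3 counts. The count of further pathway genes under each alternative was added after seeing the data.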
